A study of Mus musculus with 9 samples.

Results

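The genes described here are the mouse chemokine ligands and receptors: the CC and CXC ligands, the C ligand Xcl1 and the CX3C ligand Cx3cl1, with the CC, CXC, C, CX3C and atypical receptors. They were taken by symbol (Ccl, Ccr, Cxcl, Cxcr or Ackr followed by a number, or Cx3cl1, Cx3cr1, Xcl1 or Xcr1), which found 60 of the 35321 genes measured. The 60 genes were 35 ligands (20 CC, 13 CXC, 2 of the C and CX3C classes), 23 receptors and 2 Ccl19 pseudogenes. Of these, 34 reached 1 FPKM (reads per kilobase of transcript, scaled to the depth of the library) in at least 3 of the 9 samples and were tested: 23 ligands and 11 receptors. The other 26 are given as values.

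Poly(A) RNA was sequenced from tumours that grew under the skin after LLC cells, a Lewis lung carcinoma line of C57BL/6 origin, were injected in the right flank. The hosts were male C57BL/6 mice of 4 to 5 weeks. Starting 5 days after the injection they received, intraperitoneally, PBS as vehicle or digoxin, 0.1 mg/kg in the low-dose group and 1 mg/kg in the high-dose group, with 3 samples per group. Digoxin is a cardiac glycoside, an inhibitor of the sodium and potassium pump of the cell membrane. The tumours thus came from 1 injected line in hosts with their own immune cells, and the RNA is that of whole tissue. In such bulk tissue fewer cells of a type and less RNA per cell cannot be told apart. The labels do not state that the samples of a group are separate mice, so the p-values rest on the spread among 3 samples per group, part of which may be technical.

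Chemokines are small secreted proteins, named by the spacing of their first cysteines, that direct the migration of leukocytes through G protein-coupled receptors. Ligands and receptors are shared: most inflammatory CC ligands bind more than 1 receptor, and receptors such as CCR1 and CXCR2 bind several ligands. CCR2 is known for monocyte recruitment, CXCR2 for neutrophils, CXCR3 for activated T and NK cells, and CCR7 for dendritic and T cell traffic to lymph nodes, while the atypical receptors bind chemokines without G protein signalling.

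The read depth in the denominator of the FPKM values, recovered from their spacing, was 48.6 to 51.8 M reads (mega) with vehicle, 42.9 to 43.3 M reads at the low dose and 40.5 to 42.3 M reads at the high dose. These units may be single reads or pairs. Over all tested genes, 2 digoxin libraries lay apart from the other 4. On the first principal component (69.4% of the variance) vehicle samples scored −55.0 to −47.6, sample 2 at the low dose scored −0.6, sample 1 at the high dose scored 9.1, and the other digoxin samples scored 35.7 to 37.9. Sample 1 at the high dose also stood alone on the second component (12.4%), at −43.9 against −1.2 to 19.1. Where leaving them out changed a call, the value without them stands beside it. On the first component both lay between vehicle and the other digoxin samples, so leaving them out favours calls against vehicle. Without both, 61.5% and 61.3% of all tested genes were called at the low and the high dose. Calls made only without them are therefore a description. As a check of the tissue label, the epithelial marker Epcam was near 0 in every group (means 0.0559, 0.0283 and 0.0258 FPKM with vehicle, the low and the high dose), while the keratins Krt8 (2.76, 85.6 and 115 FPKM) and Krt18 (55.7, 6.46 and 3.65 FPKM) were measured. Of 4 tested epithelial markers, 3 rose and 1 fell at the low dose, and 2 rose and 1 fell at the high dose. The rises include Krt19 at both doses and Muc1 at the low dose. Both genes were under 1 FPKM in all vehicle samples and entered the test through digoxin samples, which favours a difference from vehicle. The sum of the epithelial markers was 47.4 to 68.8, 83.9 to 111 and 114 to 138 FPKM. Of 11 tested skeletal muscle markers, 5 rose at each dose and none fell, where 42.2% and 45.9% of all tested genes changed in either direction. The count at the low dose includes Myh1, which entered the test in the same way as Krt19. The sum of the muscle markers was 56.4 to 132 FPKM with vehicle, 212 to 412 at the low dose and 97 to 1317 at the high dose. The part of either list in the chemokine results was not tested.

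Both comparisons with vehicle ask which chemokine transcripts of the tumour differ under digoxin. Fold changes are differences of means of log2(FPKM + 1), a scale that makes changes of weakly expressed genes look smaller, and a gene is said to rise or fall where the limma adjusted p over all 13687 tested genes was under 0.05. At the low dose 17 of the 34 tested genes rose and 4 fell, where 42.2% of all tested genes changed, and the 3 values lay all above or all below vehicle for 24 of the 34 and for 60.2% of all tested genes. With the high dose 13 rose and 7 fell, where 45.9% of all tested genes changed, and the groups did not overlap for 20 of the 34 and for 58.3% of all tested genes. Split by direction, 21.6% of all genes rose and 20.7% fell at the low dose, against 20.7% and 25.2% at the high dose. The median log2 fold change was 0.63 for the 34 genes and 0.02 for all tested genes at the low dose, and 0.45 against −0.04 at the high dose. The comparisons share the 3 vehicle samples. The shares over all tested genes are also the background for the counts of list genes below.

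The values by dose fell into a few patterns. Genes that rose at both doses were the ligands Ccl2, Ccl3, Ccl4, Ccl6, Ccl7, Ccl9, Ccl12, Cxcl2, Cxcl3 and Cxcl10 and the receptors Ccr1 and Ackr3, 12 in all. Those that fell at both were 4: Ccl11, Ccr2, Cx3cl1 and Cx3cr1. A rise was called at the low dose and none at the high dose for genes that included Ccl5, Ccl8, Ccr7 and Cxcl9. At the high dose alone a call was made for Cxcl1, which rose, for Cxcl16 and Cxcr6, which fell, and for Ccl25, whose lower values are described below without a test. No call was made at either dose for Ackr1, Ccl22, Ccl24, Cxcl5, Cxcl12, Cxcl14, Cxcr2, Cxcr3 and Cxcr4. A call at 1 dose alone is no test of a difference between doses. That direct test is given at the end.

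**Figure D1:**
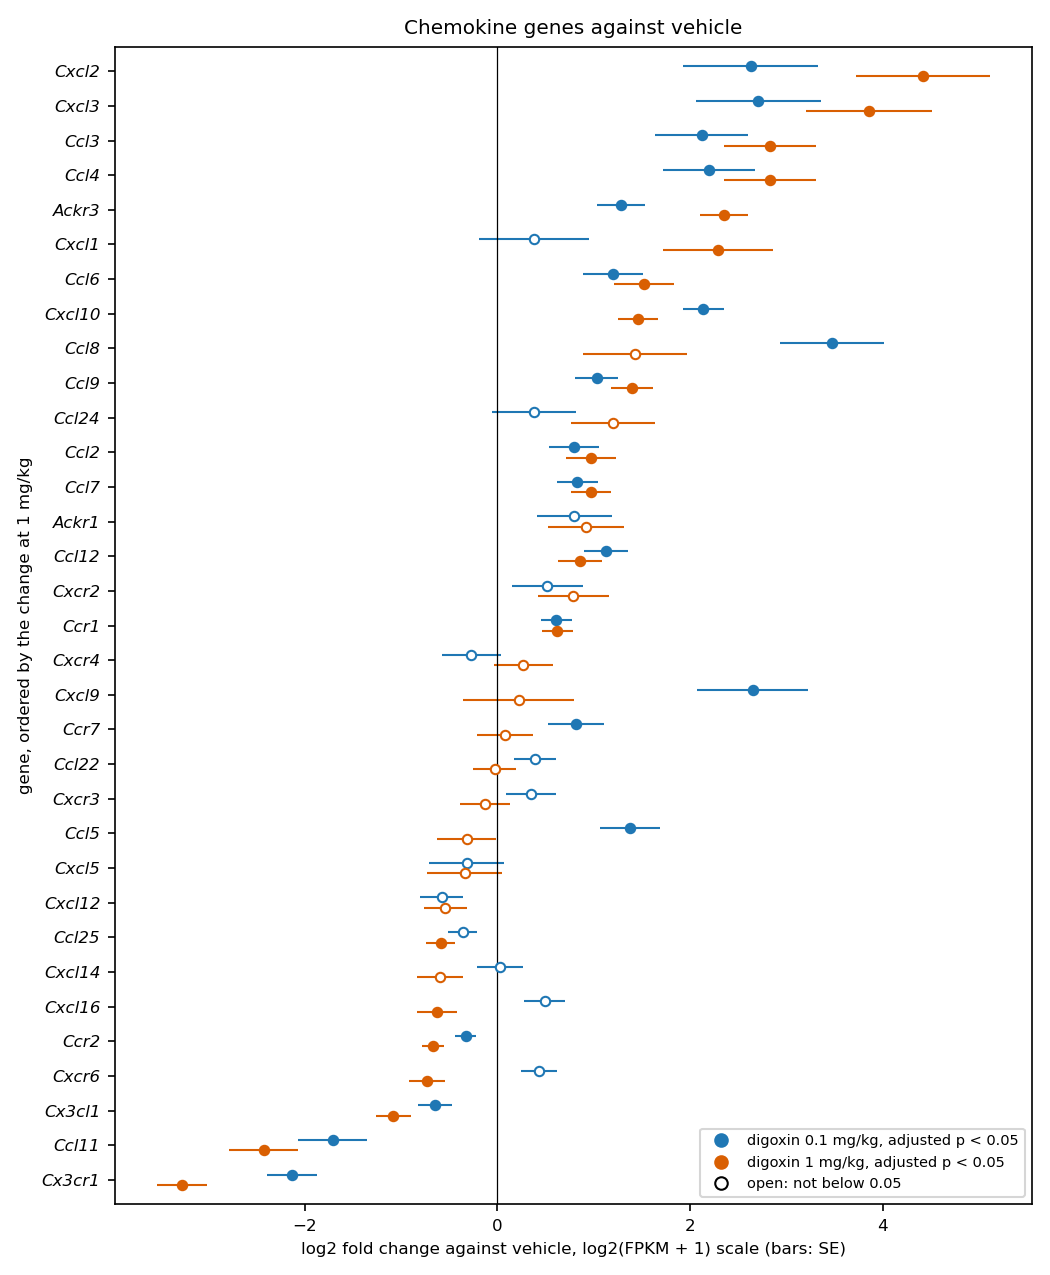
Log2 fold change against vehicle on the log2(FPKM + 1) scale (horizontal axis, bars are standard errors) of 33 tested genes (vertical axis, ordered by the change at the high dose) in the low-dose (blue) and high-dose (orange) groups, filled where the limma adjusted p was under 0.05. Cxcl2 and Cxcl3 stand at the top with 4.42 and 3.86 at the high dose, Cx3cr1 and Ccl11 at the bottom with −3.28 and −2.43, and Ccl8, Cxcl9 and Ccl5 have their larger value at the low dose.

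The start regions of 4 ligands whose RNA rose at the high dose are shown because they share a sequence pattern. In RefSeq promoter windows of GRCm38.p6, from 250 bases before to 50 bases after each start, the letters GGGANNTTCC, a form of the NF-κB binding motif, were searched on both strands. They were found in the windows of Cxcl1, Cxcl2, Cxcl3 and Cxcl10 and of no other of the 24 tested genes that had a window, and in 1.47% of all 32851 windows. GAAANNGAAA, the core of the interferon response element, was found in the windows of Cxcl10 and Cxcl14 and in 3.44% of all windows. The AP-1 motif TGANTCA was found in those of Ccl9, Cxcl9 and Cxcl10 and in 7.81% of all windows. Among untested members, the NF-κB pattern was in the windows of Ccl1 and Ccr3, and the interferon pattern in that of Ccl19. The AP-1 motif was in those of Ccl27a, Ccl28, Ccr1l1, Ccr3 and Ccr4. The sequences below run 5′ to 3′ and end at the base before the start, and capitals mark matches to the first and second pattern. In Cxcl1, Cxcl2 and Cxcl3 the 11 capitals are a match on each strand, shifted by 1 base. They begin 71, 97 and 73 bases before the start. Cxcl10 has its interferon element 213 and its NF-κB pattern 159 bases before the start. No pattern was found in the windows of Ccl3, Ccl6, Ccl12, Ccr1 and Ackr3, which rose at both doses. The windows of Ccl8 and Cx3cr1, whose values are among those below, held none either. A match describes letters and not binding, which was not measured.
Cxcl1 (chr5:90891095-90891244, plus strand): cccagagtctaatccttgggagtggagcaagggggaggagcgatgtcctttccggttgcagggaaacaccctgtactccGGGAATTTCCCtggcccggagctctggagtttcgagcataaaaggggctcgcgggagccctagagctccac
Cxcl2 (chr5:90903749-90903898, plus strand): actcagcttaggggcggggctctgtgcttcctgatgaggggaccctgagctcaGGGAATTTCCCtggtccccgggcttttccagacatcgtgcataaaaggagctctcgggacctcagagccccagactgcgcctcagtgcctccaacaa
Cxcl3 (chr5:90785951-90786100, plus strand): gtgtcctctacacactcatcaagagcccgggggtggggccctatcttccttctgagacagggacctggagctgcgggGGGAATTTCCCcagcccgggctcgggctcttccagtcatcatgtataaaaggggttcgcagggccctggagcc
Cxcl10 (chr5:92348890-92349139, minus strand): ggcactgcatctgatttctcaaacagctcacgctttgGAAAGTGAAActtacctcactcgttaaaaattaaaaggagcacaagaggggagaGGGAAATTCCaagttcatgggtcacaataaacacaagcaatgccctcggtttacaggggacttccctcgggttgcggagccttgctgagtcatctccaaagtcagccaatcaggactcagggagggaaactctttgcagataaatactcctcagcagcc

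The ELR-type CXC ligands, which act on neutrophils through CXCR2, had the largest rises of the family at the high dose, those of Cxcl2 and Cxcl3. Cxcl2 measured 15.7, 6.27 and 3.42 FPKM with vehicle, 119, 38.4 and 26.1 FPKM at the low dose, and 362, 89.9 and 159 FPKM at the high dose. Every digoxin sample was above every vehicle sample, and sample 1 was the highest of each group. Cxcl2 rose by 2.63 on the log2 scale (SE 0.70, limma adjusted p = 0.0177) at the low dose and by 4.42 (SE 0.70, limma adjusted p = 0.00206) at the high dose, where its mean moved from rank 16 to rank 4 of the 60 genes. The call at the low dose was lost in 3 of 9 fits that left out 1 library (without vehicle sample 2, vehicle sample 3 or low-dose sample 1; highest limma adjusted p = 0.0679). It was also lost with no expression filter (limma adjusted p = 0.0509).

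Cxcl3, a close relative with the same receptor, measured 7.25, 1.84 and 1.3 FPKM with vehicle, 56.4, 21.1 and 10.8 FPKM at the low dose, and 79.1, 32.5 and 60.7 FPKM at the high dose. It rose by 2.71 (SE 0.65, limma adjusted p = 0.0118) and 3.86 (SE 0.65, limma adjusted p = 0.0025) on the log2 scale. Cxcl1 differed from these neighbours at the low dose. Its values were 18.3, 16.9 and 8.82 FPKM with vehicle, 25.6, 20.6 and 12 FPKM at the low dose, and 193, 36.1 and 54.7 FPKM at the high dose, so the vehicle and low-dose ranges overlapped while all 3 samples at the high dose lay above both. The log2 change of Cxcl1 was 0.38 (SE 0.57, limma adjusted p = 0.611) at the low dose, and it rose by 2.29 (SE 0.57, limma adjusted p = 0.0121) at the high dose. The mean of 94.5 FPKM at the high dose rests in part on sample 1. Without that sample the rise at the high dose was 1.60 for Cxcl1 (limma adjusted p = 0.00913), 3.89 for Cxcl2 (limma adjusted p = 0.00329) and 3.59 for Cxcl3 (limma adjusted p = 0.00506). The ratio of Cxcl2 to Cxcl1 FPKM was 0.371 to 0.857 with vehicle, 1.86 to 4.64 at the low dose and 1.88 to 2.91 at the high dose. With vehicle Cxcl1 was thus the higher of the pair in every sample, and with digoxin Cxcl2 was.

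Cxcl5, the fourth tested ligand of this type under the symbol rule, showed no such rise, with means of 2.64, 2.18 and 2.03 FPKM (log2 −0.32, SE 0.39, at the low dose and −0.34, SE 0.39, at the high dose). Its lowest value was 0.582 FPKM in sample 3 at the low dose. Ppbp, a related ligand outside the symbol rule, is in none of the class sums or shares and is given below. The untested Cxcl15 was at or below 0.0658 FPKM throughout. Receptor RNA for these ligands was low. Cxcr2 measured 1.54, 1.06 and 0.463 FPKM with vehicle, 3.03, 2.39 and 0.629 FPKM at the low dose, and 1.53, 2.26 and 3.82 FPKM at the high dose, with overlapping groups and no call (log2 0.52, SE 0.37, and 0.79, SE 0.37). Cxcr1, its relative, was under the filter with means of 0.151, 0.427 and 0.799 FPKM. Neutrophil markers rose in the same groups: 7 of 12 tested at the low dose and 10 at the high dose, and none fell. Mmp9 had lower means with digoxin (33.2, 21.2 and 26.9 FPKM) and no call. The rises at both doses include Ly6g, Camp and Ltf, which were under 1 FPKM in all vehicle samples. They entered the test through digoxin samples, which favours a difference from vehicle. The sum of the neutrophil markers was 86.4 to 231 FPKM with vehicle, 166 to 843 at the low dose and 544 to 1244 at the high dose. Among the defining markers S100a8 went from 18.4 to 95.6 and 182 FPKM, S100a9 from 67 to 215 and 431, and Csf3r from 6.14 to 15 and 13.3. The highest marker sum at the high dose was in sample 3 (1244 FPKM), whereas Cxcl1 and Cxcl2 were highest in sample 1, whose marker sum was 544. The part of neutrophil content in these values was not tested.

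**Figure D2:**
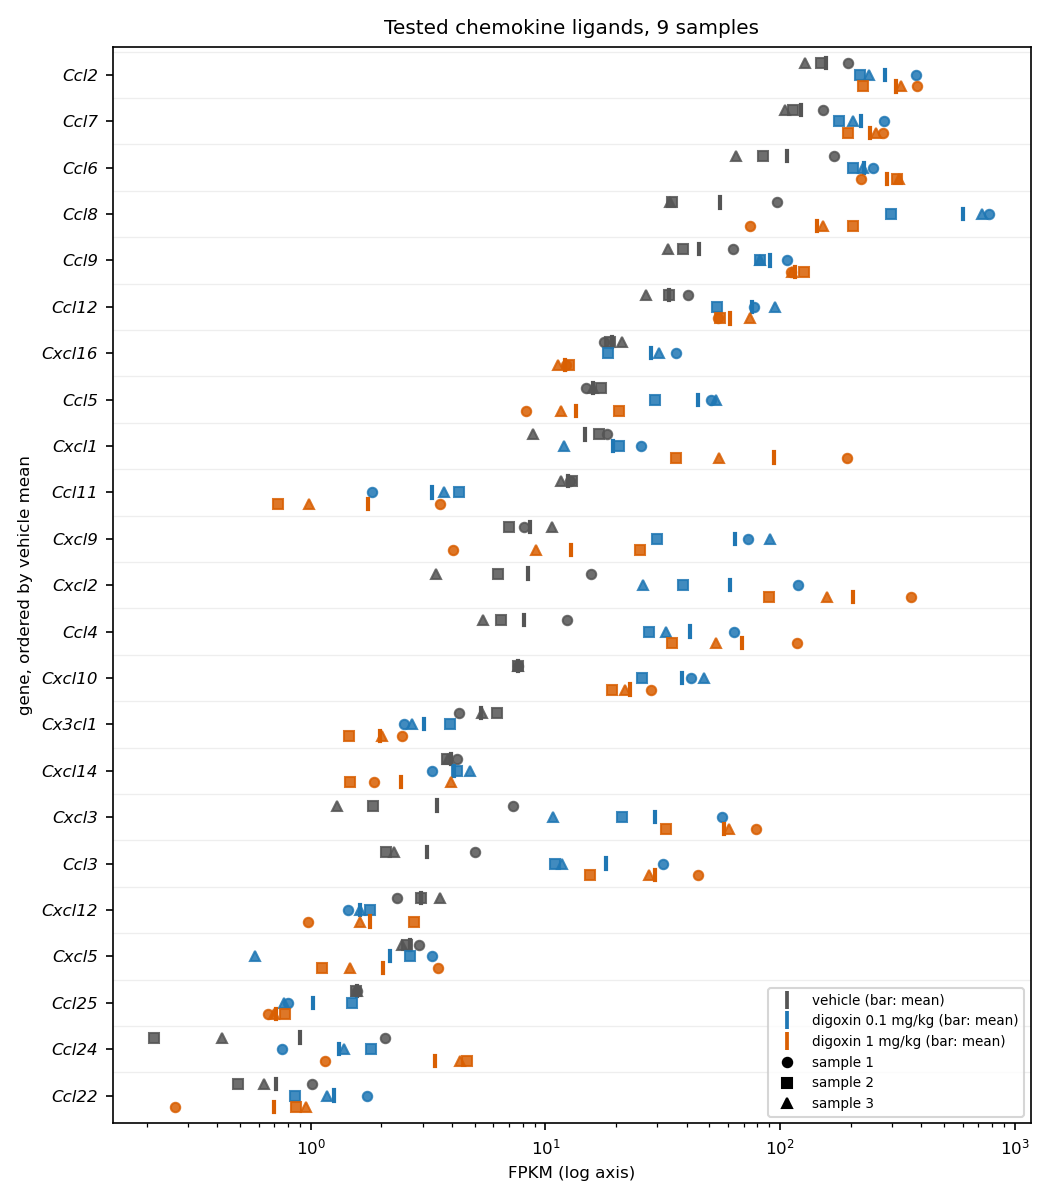
FPKM on a log axis of the 23 tested ligands (vertical axis, ordered by the vehicle mean) in the 9 samples, with symbols for samples 1 to 3, bars for group means, and grey for vehicle, blue for the low and orange for the high dose. Ccl2, Ccl7 and Ccl6 lead with vehicle at means of 157, 123 and 107 FPKM, Ccl8 leads at the low dose with 599, and Cxcl2 spans 3.42 to 362 FPKM over the 9 samples.

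The CC ligands of the monocyte chemoattractant group (Ccl2, Ccl7, Ccl8 and Ccl12) were the most abundant chemokine RNA of the tumours. Counted as FPKM, this group made up 56.4% to 58.8% of the ligand sum with vehicle, at the low dose 58.2% to 66.2% and at the high dose 39.6% to 48.6%. Ccl2, the main ligand of CCR2, measured 194, 150 and 128 FPKM with vehicle, 380, 220 and 239 FPKM at the low dose, and 384, 225 and 328 FPKM at the high dose. Each digoxin sample was above each vehicle sample. Ccl2 rose by 0.80 (SE 0.26, limma adjusted p = 0.0369) and 0.97 (SE 0.26, limma adjusted p = 0.0167) on the log2 scale. Its calls are among the less stable of the family. The call at the low dose was lost in 5 of 9 fits without 1 library (highest limma adjusted p = 0.123, without vehicle sample 3), with TPM rescaling (limma adjusted p = 0.0562), with quantile normalisation (limma adjusted p = 0.0598) and with no filter (limma adjusted p = 0.094), and the call at the high dose in 3 of 9 (highest limma adjusted p = 0.0647, without vehicle sample 3).

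Ccl7, which binds CCR1, CCR2 and CCR3, tracked Ccl2 closely: the ratio of Ccl2 to Ccl7 FPKM stayed between 1.16 and 1.4 in all 9 samples. Its samples gave 152, 113 and 105 FPKM with vehicle, 278, 179 and 205 at the low dose and 274, 194 and 257 at the high dose. Ccl7 rose by 0.83 (SE 0.21, limma adjusted p = 0.0135) and 0.97 (SE 0.21, limma adjusted p = 0.00626), and its call at the low dose was lost without vehicle sample 2 or 3 (highest limma adjusted p = 0.0547). Ccl12, a further mouse ligand of CCR2, measured 40.4, 33.5 and 26.7 FPKM, then 77.4, 53.9 and 95.5 FPKM, then 54.4, 55.6 and 74.3 FPKM in the same order of groups. Its rise was 1.13 (SE 0.23, limma adjusted p = 0.00593) at the low dose and 0.86 (SE 0.23, limma adjusted p = 0.0154) at the high dose, the latter lost without vehicle sample 3 or high-dose sample 3 (highest limma adjusted p = 0.0603).

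Ccl8 had another profile over the doses. It measured 97.2, 34.5 and 33.8 FPKM with vehicle, 775, 298 and 723 FPKM at the low dose, and 74.2, 204 and 153 FPKM at the high dose. At the low dose all 3 samples were above all other samples of the study, and its mean of 599 FPKM made it the most abundant of the 60 genes in that group. At the high dose sample 1 lay below vehicle sample 1, so these groups overlapped. Ccl8 rose by 3.48 (SE 0.54, limma adjusted p = 0.00232) at the low dose, and at the high dose its log2 change was 1.43 (SE 0.54, limma adjusted p = 0.0571). Without sample 1 the latter was 1.84 (limma adjusted p = 0.0219), and a call at the high dose was also made without vehicle sample 1 (1.92, limma adjusted p = 0.0251) or low-dose sample 2 (1.43, limma adjusted p = 0.039). Relative to its neighbour Ccl12, Ccl8 FPKM was 1.03 to 2.41 times as high with vehicle, 5.53 to 10 times at the low dose and 1.36 to 3.68 times at the high dose.

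Of the CC ligands Ccl3, Ccl4, Ccl5, Ccl6 and Ccl9, all 5 rose at the low dose and 4 rose at the high dose. Ccl3 and Ccl4, the macrophage inflammatory proteins 1 alpha and beta, had the largest changes. Ccl3 measured 4.99, 2.09 and 2.27 FPKM with vehicle, 31.8, 11 and 11.8 FPKM at the low dose, and 44.6, 15.5 and 27.6 FPKM at the high dose. It rose by 2.12 (SE 0.48, limma adjusted p = 0.00936) and 2.83 (SE 0.48, limma adjusted p = 0.00262). Ccl4 measured 12.4, 6.48 and 5.44 FPKM, then 63.5, 27.7 and 32.5 FPKM, then 118, 34.5 and 53.3 FPKM. Its rises were 2.20 (SE 0.48, limma adjusted p = 0.00826) and 2.83 (SE 0.48, limma adjusted p = 0.00262). In both genes sample 1 was the highest of its group in all 3 groups, and no digoxin sample overlapped vehicle. The Ccl3 to Ccl4 ratio of FPKM stayed at 0.322 to 0.519 in all 9 samples.

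Ccl6 and Ccl9, ligands of CCR1 found in rodents, rose from a high vehicle level. Ccl6 measured 170, 84.9 and 64.9 FPKM with vehicle, 249, 204 and 226 FPKM at the low dose, and 222, 314 and 321 FPKM at the high dose. Ccl6 rose by 1.20 (SE 0.31, limma adjusted p = 0.0161) and by 1.52 (SE 0.31, limma adjusted p = 0.00552). Its low-dose call did not hold in 4 of 9 fits without 1 library (highest limma adjusted p = 0.0594, without vehicle sample 2). Ccl9 measured 63.2, 38.7 and 33.2 FPKM, then 107, 82.4 and 82.3 FPKM, then 111, 126 and 112 FPKM, with no overlap between any of the groups. It rose by 1.03 (SE 0.22, limma adjusted p = 0.00683) and 1.40 (SE 0.22, limma adjusted p = 0.00181). Ccl5, a ligand made by T and NK cells among others, departed from the group. Its samples gave 14.9, 17.2 and 15.9 FPKM with vehicle, 51, 29.4 and 53.4 FPKM at the low dose, and 8.26, 20.6 and 11.6 FPKM at the high dose. Ccl5 rose by 1.38 (SE 0.31, limma adjusted p = 0.00929) at the low dose, and at the high dose its log2 change was −0.32 (SE 0.31, limma adjusted p = 0.419), with 2 samples below the vehicle range and 1 above it.

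Markers of macrophages and monocytes, which make many of these CC ligands, were abundant in every library. Of 15 tested, 7 rose and none fell at the low dose, and 7 rose and 2 fell at the high dose, with sums of 2826 to 3177, 2996 to 4524 and 2199 to 3333 FPKM. The defining markers Csf1r (43.5, 49.3 and 33 FPKM) and Adgre1 (28.3, 27.5 and 17.4 FPKM) were the 2 that fell at the high dose (limma adjusted p = 0.0498 and 0.0135), while Cd68 (113, 192 and 174 FPKM) rose at both doses. Set against this list, the summed FPKM of the monocyte chemoattractant group was 369 ± 100 (SD, n = 3) with vehicle, 1175 ± 387 at the low dose and 759 ± 70.5 at the high dose. That of Ccl3, Ccl4, Ccl5, Ccl6 and Ccl9 was 179 ± 76.2, 421 ± 74.9 and 514 ± 10.7. Whether cell number has a part in these sums was not tested.

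**Figure D3:**
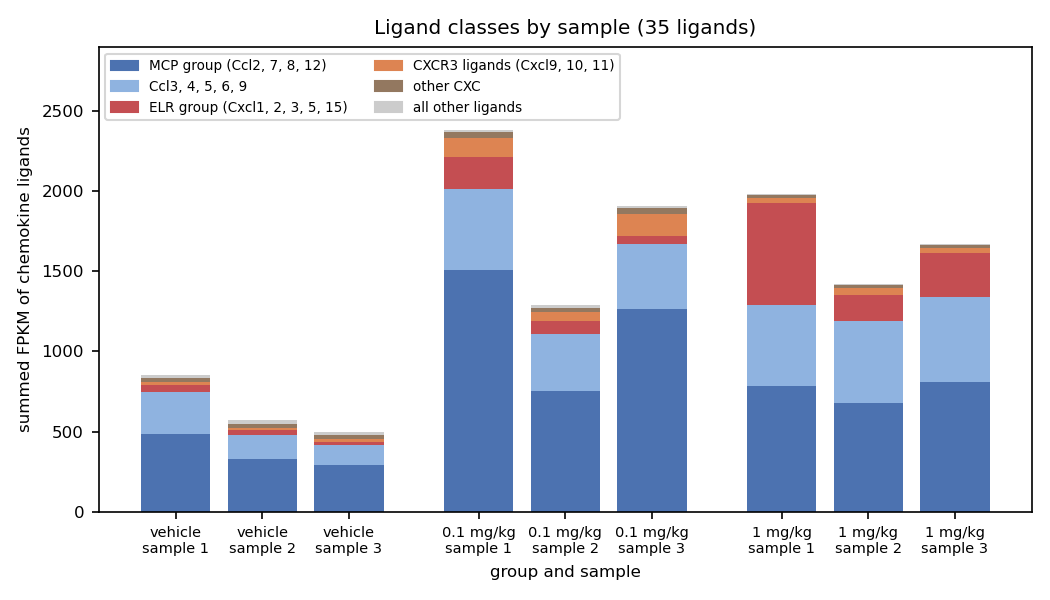
Summed FPKM of the 35 ligands (vertical axis) in each of the 9 samples (bars), stacked by class. All 3 vehicle bars (499 to 856) are below the digoxin bars (1289 to 2384 at the low dose and 1423 to 1985 at the high dose), and the neutrophil-directed ELR class reaches 637 in sample 1 at the high dose against 160 and 276 in the others of that group.

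The receptors of these CC ligands did not move with them as a group. Ccr1, found on monocytes and neutrophils, was the most abundant receptor with vehicle and at the low dose, with 20.6, 21.8 and 16.8 FPKM with vehicle, 36.9, 27.2 and 27.9 FPKM at the low dose, and 36.8, 26.8 and 29.4 FPKM at the high dose. It rose by 0.61 (SE 0.16, limma adjusted p = 0.0165) and 0.62 (SE 0.16, limma adjusted p = 0.0134). The call at the low dose was lost without vehicle sample 3 or low-dose sample 1 (highest limma adjusted p = 0.0647), and that at the high dose without vehicle sample 3 (limma adjusted p = 0.054).

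Ccr2, the receptor of inflammatory monocytes, went the other way. Its values were 11.7, 10.5 and 12.2 FPKM with vehicle, 8.66, 10.6 and 7.74 FPKM at the low dose, and 7.1, 6.49 and 6.85 FPKM at the high dose. No high-dose sample overlapped vehicle, and Ccr2 fell there by 0.67 (SE 0.11, limma adjusted p = 0.00233). Low-dose sample 2 lay within the vehicle range. The fall of 0.33 there (SE 0.11, limma adjusted p = 0.0422) lost its call in 7 of 9 fits without 1 library (highest limma adjusted p = 0.144, without low-dose sample 3), with no filter (limma adjusted p = 0.085) and in a fit of the 2 groups alone (limma adjusted p = 0.058). Without low-dose sample 2 it was 0.44 (limma adjusted p = 0.00607). The ratio of Ccr1 to Ccr2 FPKM was 1.38 to 2.07 with vehicle, 2.57 to 4.26 at the low dose and 4.13 to 5.18 at the high dose. So Ccr2 fell while its ligands Ccl2, Ccl7 and Ccl12 rose, at both doses.

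The interferon-inducible ligands of CXCR3 were highest at the low dose. Cxcl9 measured 8.08, 7 and 10.7 FPKM with vehicle, 73.1, 29.8 and 90.7 FPKM at the low dose, and 4.05, 25.3 and 9.1 FPKM at the high dose. All samples at the low dose were above the others, and at the high dose sample 1 was below and sample 2 above the vehicle range. Cxcl9 rose by 2.65 (SE 0.58, limma adjusted p = 0.0085) at the low dose. Its log2 change at the high dose was 0.22 (SE 0.58, limma adjusted p = 0.777). That value was 0.78 without sample 1 (limma adjusted p = 0.233) and −0.41 without sample 2. Cxcl10 measured 7.64, 7.61 and 7.66 FPKM with vehicle, the smallest SD relative to the mean of any tested ligand in that group, then 41.6, 25.8 and 47.5 FPKM, then 28.1, 19.2 and 21.8 FPKM. It rose by 2.14 (SE 0.21, limma adjusted p = 0.000473) and 1.46 (SE 0.21, limma adjusted p = 0.00149), and these calls held in all 9 fits without 1 library. The Cxcl9 to Cxcl10 ratio of FPKM was 0.92 to 1.4 with vehicle, 1.15 to 1.91 at the low dose, and 0.144, 1.32 and 0.418 at the high dose. Cxcl11, the third ligand of this receptor, was under the filter, with means of 0.106, 0.8 and 0.333 FPKM and 60, 392 and 156 recovered reads per group.

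Cxcr3 itself, a receptor of activated T and NK cells, had means of 1.65, 2.42 and 1.49 FPKM (log2 0.35, SE 0.26, and −0.13, SE 0.26) with overlapping groups. Without both libraries that lay apart its low-dose value was 0.52 (limma adjusted p = 0.0216), where 61.5% of all tested genes passed. T cell markers moved with the CXCR3 ligands and Ccl5 at the low dose: 8 of 10 tested rose and none fell, whereas at the high dose 1 rose and 1 fell. The gene that rose at the high dose, Cd28, is also among the rises at the low dose. Cd28 was under 1 FPKM in all vehicle samples and entered the test through digoxin samples, which favours a difference from vehicle. The sum of the T cell markers was 24.4 to 30.5 FPKM with vehicle, 51.1 to 84.4 at the low dose and 12 to 37.6 at the high dose. Cd3d went from 1.33 to 3.05 and 0.855 FPKM, Cd3e from 0.495 to 0.997 and 0.397, and Cd3g from 1.48 to 3.34 and 1. Of 5 tested NK cell markers 4 rose at the low dose and 3 at the high dose, and none fell (sums 17.3 to 19.4, 37.5 to 54 and 14.2 to 35.3 FPKM). Both counts include Eomes, which was also under 1 FPKM in all vehicle samples and entered the test in the same way. Gzma had lower means with digoxin (7.64, 5.98 and 6.81 FPKM) and no call. Of the untested list genes, the NK receptor gene Ncr1 measured 0.447, 0.297 and 0.39 FPKM and Klra8 0.406, 0.302 and 0.416 FPKM. Whether NK or T cells held the transcripts that rose was not tested. Within the high-dose group, sample 1 had the lowest sum of T cell (12 FPKM), NK cell (14.2) and B cell markers (5.5) and also the lowest Cxcl9, Ccl5, Ccl8, Ccr7 and Cxcr3. Other related genes went differently. Cxcl10 was highest in that sample (28.1 FPKM against 19.2 and 21.8), and Cxcl11 (0.356) and Cxcr6 (0.515) were not lowest there. The part of lymphocyte content in these values was not tested.

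Cxcl16, a membrane-anchored ligand of macrophages, and its receptor Cxcr6, found on T and NK cells, fell together at the high dose. Cxcl16 measured 17.7, 18.8 and 21.1 FPKM with vehicle, 36, 18.4 and 30.4 FPKM at the low dose, and 12.3, 12.6 and 11.3 FPKM at the high dose, so that all samples at the high dose were below all others. It fell by 0.63 (SE 0.21, limma adjusted p = 0.0356) at the high dose. That call was lost in 6 of 9 fits without 1 library (highest limma adjusted p = 0.111, without vehicle sample 3) and with no filter (limma adjusted p = 0.0879). Without high-dose sample 1 the fall was 0.64 (limma adjusted p = 0.0528). Cxcl16 passed with low-dose sample 2 left out as well (limma adjusted p = 0.00126), where 61.3% of all tested genes did. Its log2 change at the low dose was 0.49 (SE 0.21, limma adjusted p = 0.0858), and without sample 2 it was 0.76 (limma adjusted p = 0.00124). Cxcl16 shares 552 exon bases with Zmynd15 on the opposite strand (5.79, 6.71 and 2.45 FPKM), and whether reads were counted by strand is not given in the sources used here, so its values are uncertain. Cxcr6 measured 2.1, 1.71 and 1.87 FPKM, then 3.08, 2.26 and 3.4 FPKM, then 0.515, 1.29 and 0.511 FPKM. It fell by 0.73 (SE 0.19, limma adjusted p = 0.0134) at the high dose and differed by 0.43 (SE 0.19, limma adjusted p = 0.0955) at the low dose, where no sample overlapped vehicle. Without sample 2 at the low dose that value was 0.55 (limma adjusted p = 0.0467), and without sample 2 at the high dose its adjusted p in limma was 0.0405.

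The deepest fall of the family was that of the fractalkine receptor Cx3cr1, a gene of patrolling monocytes, resident macrophages and NK cells. It measured 12.9, 16.1 and 19.8 FPKM with vehicle, 1.85, 3.66 and 3.43 FPKM at the low dose, and 1.41, 0.498 and 0.488 FPKM at the high dose, with no overlap between any of the groups. Cx3cr1 fell by 2.13 (SE 0.26, limma adjusted p = 0.000919) and by 3.28 (SE 0.26, limma adjusted p = 0.000206), and from rank 9 with vehicle to rank 32 of the 60 genes at the high dose. These calls held in all 9 fits without 1 library. Its only ligand Cx3cl1, made as a membrane-bound adhesion protein, also fell. Its samples gave 4.3, 6.25 and 5.36 FPKM with vehicle, 2.49, 3.92 and 2.7 FPKM at the low dose, and 2.45, 1.46 and 2.02 FPKM at the high dose. The fall of Cx3cl1 was 0.65 (SE 0.18, limma adjusted p = 0.022) and 1.08 (SE 0.18, limma adjusted p = 0.00255). At the low dose it was lost in 4 of 9 fits without 1 library (highest limma adjusted p = 0.0825, without vehicle sample 2) and with no filter (limma adjusted p = 0.057), while without low-dose sample 2 it was 0.80 (limma adjusted p = 0.00797).

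**Figure D4:**
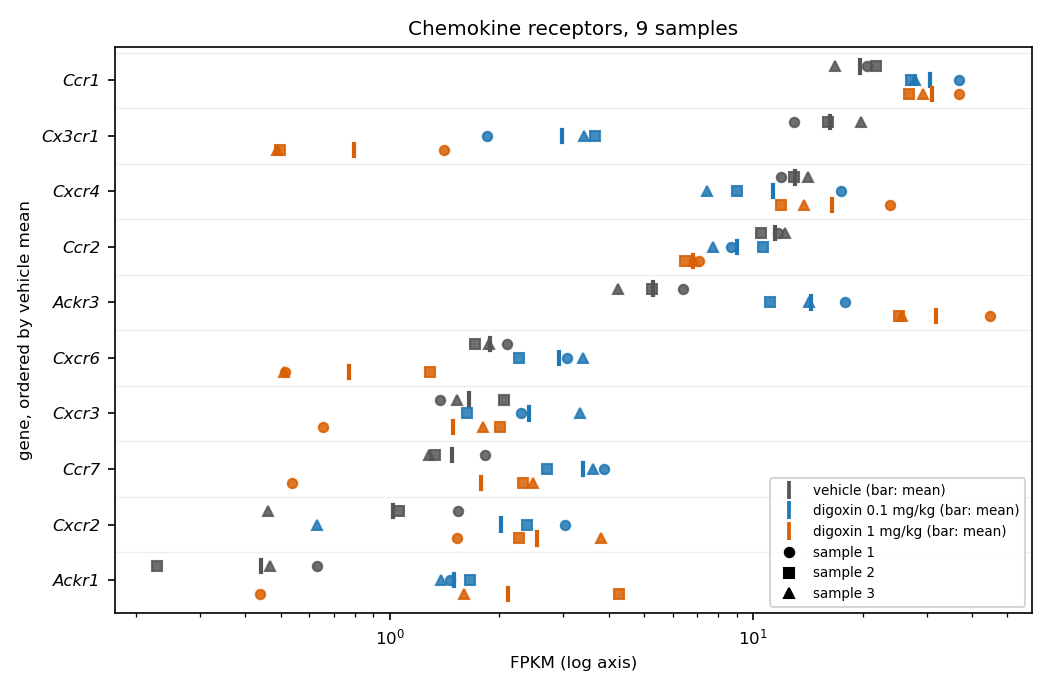
FPKM on a log axis of 10 tested receptors (vertical axis, ordered by the vehicle mean) in the 9 samples, with symbols for samples 1 to 3, bars for group means, and grey for vehicle, blue for the low and orange for the high dose. Cx3cr1 moves left from a vehicle mean of 16.3 FPKM to 2.98 and 0.798, Ackr3 moves right from 5.31 to 14.4 and 31.9, and Cxcr2, Cxcr3 and Cxcr4 overlap between groups.

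Ackr3, an atypical receptor that takes up Cxcl12 and Cxcl11, had the largest rise among receptors. It measured 6.42, 5.27 and 4.25 FPKM with vehicle, 17.9, 11.1 and 14.2 FPKM at the low dose, and 44.9, 25.2 and 25.6 FPKM at the high dose, with no overlap between any of the groups. Ackr3 rose by 1.28 (SE 0.25, limma adjusted p = 0.00516) and 2.35 (SE 0.25, limma adjusted p = 0.000495), and the latter was 2.08 (limma adjusted p = 0.000405) without sample 1 at the high dose. Cxcl12, a stromal ligand that guides many cells through CXCR4, measured 2.33, 2.96 and 3.56 FPKM with vehicle, 1.44, 1.79 and 1.63 FPKM at the low dose, and 0.976, 2.76 and 1.63 FPKM at the high dose. At the low dose all samples were below vehicle, with a log2 change of −0.58 (SE 0.22, limma adjusted p = 0.0626), and at the high dose it was −0.54 (SE 0.22, limma adjusted p = 0.0748). The value at the low dose passed with TPM rescaling (−0.84, limma adjusted p = 0.0447) and quantile normalisation (−0.69, limma adjusted p = 0.0216), and without high-dose sample 1 or 2 (limma adjusted p = 0.0204 and 0.0243). That at the high dose passed with quantile normalisation (−0.58, limma adjusted p = 0.0401) and without its sample 2 (−0.78, limma adjusted p = 0.0156). Cxcr4 had means of 13, 11.3 and 16.5 FPKM with wide digoxin ranges (7.44 to 17.4 and 11.9 to 23.8), and log2 changes of −0.27 (SE 0.31) and 0.27 (SE 0.31).

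Ackr1, an atypical receptor of venular endothelium and red cells, was below 1 FPKM in all vehicle samples (0.629, 0.228 and 0.467) and entered the test through the digoxin samples. It measured 1.46, 1.66 and 1.38 FPKM at the low dose and 0.438, 4.28 and 1.6 FPKM at the high dose. The low-dose samples were all above vehicle and the high-dose samples overlapped it. Since this choice favours a difference from vehicle, its log2 changes of 0.80 (SE 0.39) and 0.92 (SE 0.39), the latter 1.37 without sample 1 at the high dose, are given as a description with no test. None of 10 tested endothelial markers other than Ackr1 and Ackr3 changed at either dose. Their sum was 56.6 to 81.5, 49.3 to 74.1 and 29.2 to 90.2 FPKM, with sample 1 at the high dose the lowest, and Pecam1 measured 9.93, 9.46 and 10.6, Cdh5 17.7, 22.2 and 22.9, and Kdr 2.08, 1.82 and 1.77 FPKM.

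Ccl11 (eotaxin), a ligand of the eosinophil receptor CCR3, was the ligand with the largest fall. It measured 12.7, 13 and 11.7 FPKM with vehicle, 1.83, 4.28 and 3.71 FPKM at the low dose, and 3.54, 0.729 and 0.981 FPKM at the high dose. Ccl11 fell by 1.71 (SE 0.36, limma adjusted p = 0.00699) and 2.43 (SE 0.36, limma adjusted p = 0.00154), calls that held in all 9 fits without 1 library. Ccl24, another eotaxin, did not fall with it. Its samples gave 2.08, 0.216 and 0.417 FPKM, then 0.757, 1.8 and 1.39 FPKM, then 1.15, 4.64 and 4.31 FPKM, with log2 changes of 0.38 (SE 0.44, limma adjusted p = 0.508) and 1.20 (SE 0.44, limma adjusted p = 0.0537). Without vehicle sample 1 the change at the high dose was 1.61. The vehicle samples left in that fit were under 1 FPKM, which favours a difference, so this value is a description. Ccl24 passed at the high dose without high-dose sample 1 (1.65, limma adjusted p = 0.00825), and in voom on recovered reads (2.30, limma adjusted p = 0.0487). Ccr3 was at 0.0911, 0.111 and 0.052 FPKM. None of 5 tested eosinophil and mast cell markers other than Ccr3 changed (sums 19.8 to 24.4, 34.9 to 57.6 and 9.68 to 81.9 FPKM), and the defining eosinophil genes were near 0: Siglecf at 0.0529, 0.0501 and 0.0647, Epx at 0.00235, 0 and 0, and Prg2 at 0.0951, 0.148 and 0.0188 FPKM. Fibroblast and pericyte markers were mixed in the groups where Ccl11 fell. Of 12 tested, 2 rose and 4 fell at the low dose, and 1 rose and 5 fell at the high dose. These counts are near the 42.2% and 45.9% of all tested genes that changed. The sum of the markers was 1018 to 1127 FPKM with vehicle, 376 to 722 at the low dose and 391 to 654 at the high dose. Col3a1, most of the vehicle sum, went from 638 to 215 and 193 FPKM, whereas Col1a1 went from 40.1 to 107 and 142 and Col1a2 from 3.05 to 10.9 and 6.57. The part of fibroblast content in the Ccl11 values was not tested.

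Homeostatic and lymphoid chemokines were scarce. Ccr7, the receptor of migrating dendritic cells and naive T cells, measured 1.83, 1.33 and 1.28 FPKM with vehicle, 3.87, 2.7 and 3.61 FPKM at the low dose, and 0.538, 2.33 and 2.48 FPKM at the high dose. It rose by 0.82 (SE 0.29, limma adjusted p = 0.0498) at the low dose, the call nearest to the threshold. That call was lost in 5 of 9 fits without 1 library (highest limma adjusted p = 0.137, without low-dose sample 1), with a pseudocount of 0.1 (limma adjusted p = 0.0862), with TPM rescaling (limma adjusted p = 0.0857), with quantile normalisation (limma adjusted p = 0.0756), with no filter (limma adjusted p = 0.12), without the variance trend (limma adjusted p = 0.0508) and in voom on recovered reads (limma adjusted p = 0.0644). With the same size of 0.82 it passed without high-dose sample 1 (limma adjusted p = 0.00234). It was 0.94 (limma adjusted p = 0.000345) with both of the libraries that lay apart left out, where 61.5% of all tested genes passed. At the high dose the log2 change was 0.08 (SE 0.29, limma adjusted p = 0.835), and without sample 1 it was 0.46 (limma adjusted p = 0.0318). Of 4 tested dendritic cell markers 1 rose and 1 fell at the low dose and 2 fell at the high dose (sums 74.8 to 127, 104 to 232 and 24.8 to 65.6 FPKM). Clec9a, a marker of cross-presenting dendritic cells, went from 7.37 to 1.4 and 0.809 FPKM, while Flt3 (0.318, 0.276 and 0.159) and Zbtb46 (0.669, 0.742 and 0.714) were below 1 FPKM on average. Batf3 went the other way, with means of 0.897, 4.86 and 2.49 FPKM and a rise at the low dose (log2 1.61, limma adjusted p = 0.00503). H2-Ab1 had means of 80.7, 164 and 32.1 FPKM and fell at the high dose. The list thus did not move in 1 direction.

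The CCR7 ligands Ccl19 and Ccl21a had no read in any vehicle library. At this depth 3 reads are the limit that a count of 0 allows in a library. Sample 2 at the low dose held 17 of the 18 Ccl19 reads and 131 of the 147 Ccl21a reads of its group (0.94 and 3.51 FPKM), and also 99 of the 141 reads of Cxcl13, the B cell follicle ligand of CXCR5, whose group means were 0.0235, 0.952 and 0.357 FPKM. That library is 1 of the 2 that lay apart over all genes. Ccl21a has near-identical copies in the mouse genome, so its reads cannot be assigned with certainty. Cxcr5 measured 0.072, 0.172 and 0.0659 FPKM. Among 5 tested B cell markers 3 rose at the low dose, and 2 rose and 1 fell at the high dose, with sums of 8.39 to 11.5, 24.2 to 26.6 and 5.5 to 19.5 FPKM. Every marker counted as a rise was under 1 FPKM in all vehicle samples and entered the test through digoxin samples. Since this favours a difference from vehicle, these rises are a description. The sum in sample 2 at the low dose (26.6) was close to those of its group (25.7 and 24.2), and of the listed genes Ms4a1 measured 0.0256, 0.155 and 0.0291 and Cd79a 0.463, 8.78 and 8.46 FPKM.

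Ccl25, the ligand of the gut-homing receptor CCR9, measured 1.58, 1.56 and 1.57 FPKM with vehicle, 0.802, 1.5 and 0.772 FPKM at the low dose, and 0.655, 0.781 and 0.696 FPKM at the high dose. The samples of both doses were below vehicle and overlapped each other. Ccl25 was under 1 FPKM in every high-dose sample and entered the test through the vehicle samples and low-dose sample 2, which favours a difference from vehicle. Its log2 changes of −0.36 (SE 0.15) at the low dose, −0.52 without sample 2, and −0.59 (SE 0.15) at the high dose are therefore a description, although the latter counts among the 7 falls at that dose. Ccl25 shares 204 exon bases with Elavl1 on the opposite strand (13.4, 11.2 and 10.5 FPKM), so its values are uncertain in the same way as those of Cxcl16. Ccl22, a dendritic cell and macrophage ligand of CCR4, had means of 0.71, 1.26 and 0.696 FPKM (log2 0.39, SE 0.22, and −0.03, SE 0.22). The first change was 0.52 without both libraries that lay apart (limma adjusted p = 0.0255), where 61.5% of all tested genes passed. Ccl17, the other ligand of CCR4, had 0.459, 0.904 and 0.49 FPKM. Cxcl14, a ligand expressed in epithelia and stroma, had means of 3.96, 4.09 and 2.43 FPKM. Its log2 changes were 0.03 (SE 0.24) and −0.60 (SE 0.24, limma adjusted p = 0.0669), the latter −0.90 without sample 3 (limma adjusted p = 0.00602) and −0.82 with TPM rescaling (limma adjusted p = 0.0393).

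The 26 untested genes lay between 0 and 3.51 FPKM, and every one of them had at least 1 read in some library. Those with a group mean of at least 0.3 FPKM and not yet named were Ccr10, a skin-homing receptor (1.19, 0.732 and 0.556 FPKM), its ligand Ccl28 (0.387, 0.0897 and 0.0746) and Xcl1, a ligand released by T and NK cells (0.431, 1.2 and 0.358). Xcl1 was highest in samples 1 and 3 at the low dose, with 1.52 and 1.63 FPKM. Receptors that complete a pair with a tested ligand were low: Ccr4 at 0.0128, 0.0501 and 0.127, Ccr8, a receptor for Ccl8, at 0.0281, 0.178 and 0.14, and Ccr9 at 0.0276, 0.0392 and 0.0237 FPKM. Ccl20 and its receptor Ccr6 had 2 and 7 reads over all 9 libraries.

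Of 19 ligand and receptor pairs with both genes tested, both rose in 6 at the low dose and in 4 at the high dose, all of them with Ccr1. At each dose the receptor fell while the ligand rose in 3 pairs, those of Ccr2. Both fell in 1 pair at the low dose (Cx3cr1 with Cx3cl1) and in 2 at the high dose (the same pair and Cxcr6 with Cxcl16). The ligand rose with no call for the receptor in 4 pairs at the low dose (Cxcr2 with Cxcl2 and Cxcl3, Cxcr3 with Cxcl9 and Cxcl10) and in 4 at the high dose. Pairs share genes and are not independent. Summed over all members, ligand FPKM was 642 ± 189 (SD, n = 3) with vehicle, 1861 ± 549 at the low dose and 1693 ± 282 at the high dose, and receptor FPKM was 81.1 ± 0.891, 94.5 ± 14.7 and 106 ± 21.6. The 3 values of each digoxin group were above the 3 of vehicle in both sums.

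**Figure D5:**
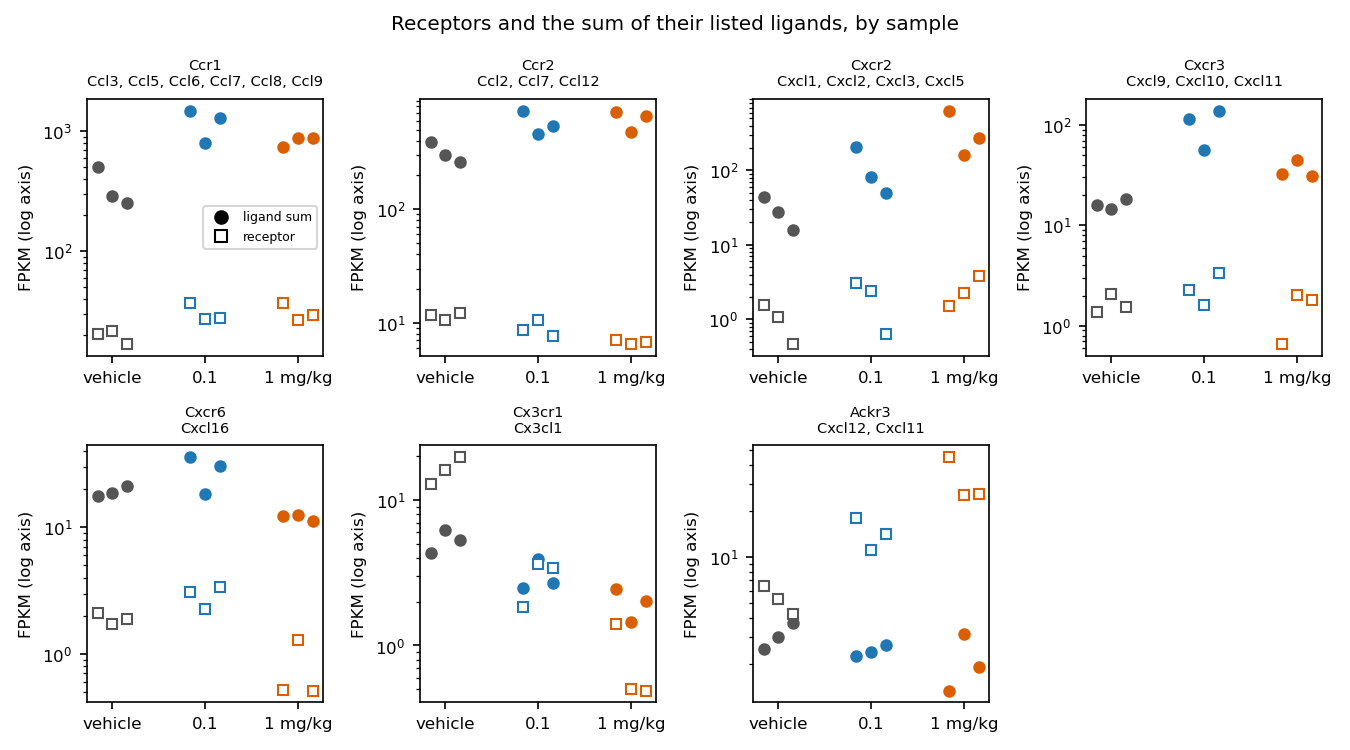
FPKM on log axes of 7 receptors (open squares) and of the sum of their listed ligands (filled circles) by group and sample, with samples 1 to 3 from left to right. For Ccr2 the ligand sum goes from a mean of 314 FPKM with vehicle to 576 and 615 while the receptor goes from 11.5 to 9 and 6.81, and for Cx3cr1 both go down.

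Genes that act with the chemokine receptors were read from lists outside the symbol rule. Of 11 tested related ligands and receptors, 8 rose and none fell at each dose, with median log2 changes of 1.65 and 1.68 against 0.02 and −0.04 for all tested genes, of which 42.2% and 45.9% changed. Pf4, the platelet and macrophage ligand CXCL4, went from 99.5 to 328 and 353 FPKM (log2 1.82, SE 0.34, limma adjusted p = 0.00436, and 1.95, SE 0.34, limma adjusted p = 0.00276), above Ccl2 at both doses. The formyl peptide receptors, which guide neutrophils and macrophages, rose too: Fpr2 from 3.39 to 22.4 and 16.6 FPKM (log2 2.39 and 2.03) and Fpr1 from 3.95 to 19.1 and 14.4 FPKM (log2 2.01 and 1.68). Ltb4r1, the leukotriene B4 receptor, rose from 4.29 to 15 and 15.9 FPKM (log2 1.65 and 1.71). Pf4 and Ppbp are also platelet markers. Of 3 tested platelet markers 2 rose and none fell at each dose (sums 63.9 to 186, 276 to 462 and 349 to 454 FPKM), with Ppbp at 12, 28.1 and 49.4 and Gp9 at 0.0758, 0.686 and 0.464 FPKM. Ppbp rose at the high dose (log2 2.19, limma adjusted p = 0.0135) and had no call at the low dose (1.28, limma adjusted p = 0.0943). Beside Pf4, the low-dose count holds Itga2b (0.692, 1.27 and 1.2 FPKM). Itga2b was under 1 FPKM in all vehicle samples and entered the test through digoxin samples, which favours a rise.

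Of 17 tested genes of the PI3K gamma, Rac and cytoskeleton branch, 8 rose and none fell at the low dose, and 4 rose and 1 fell at the high dose (medians 0.32 and 0.01). Over all tested genes 42.2% and 45.9% changed, so that 8 and 5 of 17 are near and below that share. The kinase gene Ptk2b rose from 3.53 to 23.3 and 21.5 FPKM (log2 2.38, SE 0.19, and 2.31, SE 0.19). Pik3r5 (log2 1.07 and 1.16) and Pik3r6 (0.90 and 0.61), the regulatory subunits of PI3K gamma, rose as well. Tiam1, an activator of Rac, was under 1 FPKM in all vehicle samples and entered the test through the digoxin samples. Since this favours a difference from vehicle, its log2 changes of 0.77 and 0.93 are a description, although both counts of rises include it. Of 14 tested G proteins and regulators, 4 rose and 5 fell at the low dose, and 2 rose and 6 fell at the high dose (medians 0.14 and −0.06), against the same 42.2% and 45.9% of all genes. Both counts of rises include Rgs1, which was under 1 FPKM in all vehicle samples and entered the test as Tiam1 did. Rgs16, which shortens G protein signals, fell from 8.35 to 2.7 and 2.33 FPKM (by 1.34 and 1.48 on the log2 scale), Gnai3, an inhibitory G protein subunit, fell by 0.52 and 0.46, and Grk6, a receptor kinase, fell by 0.32 and 0.53. The arrestins differed: Arrb1 rose by 0.36 and 0.72, and Arrb2 rose by 0.42 at the low dose.

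The comparison of the high with the low dose asked where the doses differ. No chemokine gene passed in limma, where 0.0146% of all tested genes did. Limma-voom on recovered reads also called none. The values did not overlap between the doses for 12 genes: Ackr3, Ccl9 and Cxcl1 were above, and Ccl5, Ccl8, Ccr2, Ccr7, Cx3cl1, Cx3cr1, Cxcl16, Cxcl9 and Cxcr6 below at the high dose, where 17% of all tested genes did not overlap (6.05% above and 11% below). The smallest limma adjusted p-values were those of Cxcr6 (log2 −1.16, SE 0.19, limma adjusted p = 0.0926), Ccl5 (−1.70, SE 0.31, limma adjusted p = 0.0953) and Cxcl16 (−1.11, SE 0.21, limma adjusted p = 0.0953). Cxcl9 (−2.43, SE 0.58) and Ccl8 (−2.05, SE 0.54) had the largest negative values and Cxcl1 (1.91, SE 0.57) and Cxcl2 (1.79, SE 0.70) the largest positive ones. Without sample 2 at the low dose, where 0.972% of all tested genes passed, 4 chemokine genes did, all lower at the high dose: Ccl5 (−1.97, limma adjusted p = 0.0346), Cxcl10 (−0.94, limma adjusted p = 0.0362), Cxcl16 (−1.38, limma adjusted p = 0.00595) and Cxcr6 (−1.29, limma adjusted p = 0.0339). Without both libraries that lay apart, where 3.4% of all tested genes passed, 7 did, among them these 4, Cx3cr1 (−1.25, limma adjusted p = 0.0386) and Cxcl9 (−2.34, limma adjusted p = 0.027).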

How the data were processed

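FPKM values of 35321 genes in 9 samples were used as the authors deposited them, in 1 table without read counts. The submitters' processing notes name the read trimmer fastp (0.22.0), the aligner HISAT2 (2.2.1) and GRCh38, a human build, although the symbols of the table are those of mouse genes. Counter, annotation and use of strand: not given in the sources used here. Values were analysed as log2(FPKM + 1) with limma 3.58.1 (R 4.3.3) for the 13687 genes that reached 1 FPKM in 3 or more samples. All 9 samples entered 1 fit with a mean per group and a trend of the variance on the mean. The two-sided p-values were adjusted by Benjamini and Hochberg's method across the tested genes, and 0.05 was the threshold.

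Depths were recovered from the spacing of the FPKM values. Exon lengths of GENCODE M21 gave whole reads within 0.03 reads for 91.1% of tested genes and for 56 of the 60 members, and fitted lengths served for the other 4. Limma-voom on these reads was added after seeing the data. The members and gene lists were chosen with earlier results of these data known. Some list genes counted as rises were under 1 FPKM in every vehicle sample and entered the test through digoxin samples, which favours a rise. They are in the neutrophil, T, NK and B cell, epithelial, muscle, platelet, PI3K gamma and G protein lists. Every tested member is named, as are untested members with a group mean of at least 0.3 FPKM or a tested partner, up to 4 genes of each pathway list by unadjusted p, and the first 3 of each marker list. Of the genes this rule takes, 1 tested member and 1 marker are not reported here, although counts and sums include them; the pairs, figures and counts of alternative estimates leave that member out. RefSeq promoter windows (GRCm38.p6) were matched by symbol for 24 of the 34 tested members.

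The alternatives were a pseudocount of 0.1, no filter, a mean of at least 5 FPKM, quantile normalisation, TPM rescaling, a replicate block, a fit of only the groups compared, each library or both libraries that lay apart left out, no trend and a 2-fold threshold. Simulated data with known changes were used to test the fit. Python 3.11.15 with pandas 2.3.3 was used for the rest.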

Additional observations from a re-analysis of the deposited data

How the results depend on the processing

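Of the estimates of called genes named here under 20 alternative settings, 345 of 398 at the low dose and 376 of 397 at the high dose passed with the same sign; 53 and 21 kept the sign and missed the threshold, and 0 changed sign. The count of 21 genes at the low dose ranged from 12 (without vehicle sample 3) to 24 (without low-dose sample 2) when 1 library was left out, and it was 13 without vehicle sample 2 or low-dose sample 1; of all tested genes 24.9% to 51.7% were called in these fits. At the high dose the count of 20 ranged from 16 to 23 (all genes 30.2% to 53.9%), and between doses that of 0 ranged from 0 to 4 (all genes 0% to 0.972%). With a 2-fold threshold 14 and 12 genes were called (all genes 8.93% and 10%). Without both libraries that lay apart the counts were 28, 24 and 7, while calls over all genes rose to 61.5%, 61.3% and 3.4%. The replicate numbers share only a number: correlations of deviations between same-numbered samples were 0.19, 0.13 and 0.09, 0.00, −0.06 and −0.01, and −0.24, −0.44 and 0.28, and the best match had the same number in 7 of 18 cases. With the replicate block 20, 21 and 0 chemokine genes and 4967, 5541 and 0 of all genes were called (5781, 6277 and 2 without), and the calls of Ccr2 and Ccr7 at the low dose were lost (limma adjusted p = 0.0797 and 0.0827). TPM rescaling moved the median of all genes from 0.02 to −0.09 at the low dose and from −0.04 to −0.12 at the high dose. At the low dose 2952 genes were higher and 2829 lower as deposited, 2368 and 3790 after TPM rescaling, and 2403 and 3552 after quantile normalisation; for the chemokine genes 17 and 4 became 14 and 6 with either.

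Estimates that changed sign belonged to genes without a call, and none had a limma adjusted p under 0.05; the cause was not tested. Between doses, as high minus low, leaving out 1 library gave ranges of −0.37 to 0.57 for Ackr1, −0.0002 to 0.41 for Ccl2, −0.11 to 0.15 for Ccr1, −0.20 to 0.26 for Cxcl12, −0.47 to 0.25 for Cxcl5 and −0.12 to 0.54 for Cxcr2. Against vehicle they were −0.14 to 0.17 for Ccl22, −0.13 to 0.46 for Ccr7, −0.41 to 0.78 for Cxcl9, −0.29 to 0.14 for Cxcr3 and −0.01 to 0.46 for Cxcr4 at the high dose, and −0.07 to 0.14 for Cxcl14 and −0.60 to 0.12 for Cxcl5 at the low dose. Without both libraries that lay apart, Ccl2 was at −0.15, Ccl4 at −0.08, Ccl7 at −0.10 and Ccr1 at −0.19 between doses, and Ccl22 at 0.17, Cxcr3 at 0.14 and Cxcr4 at −0.01 at the high dose against vehicle. A pseudocount of 0.1 put Ackr1 at −0.01 and Cxcl5 at 0.04 between doses. TPM rescaling put Ccr7 at −0.02 (high dose), Cxcl14 at −0.08 (low dose) and Cxcl5 at 0.03 (between doses), and quantile normalisation put Cxcl14 at −0.04 and Cxcl5 at 0.05. In voom on recovered reads Ackr1 was at −0.06 and Cxcl5 at 0.07 between doses, and Ccr7 at −0.01 at the high dose.

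With 3 samples per group and 6 residual degrees of freedom, changes of genes near 1 FPKM are estimated with standard errors of up to 0.44 on the log2 scale (Ccl24).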
